A study of Homo sapiens with 6 samples.

Results

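The small nucleolar RNAs (snoRNAs, symbols SNORA and SNORD), the small Cajal body RNAs (scaRNAs, symbols SCARNA) and the small nucleolar RNA host genes (symbols SNHG, with GAS5) were followed by name through RNA-seq of MDA-MB-231 cells, a human triple-negative breast cancer line. Of 26255 symbols in the expression table, 407 belonged to these families, and the 125 that were above 0 in at least 1 of 6 libraries were taken as members: 21 host genes and 104 short RNAs. Members were thus selected on their FPKM being above 0, so detection is described here and not tested. The study stably infected the cells with lentivirus that encoded either a non-targeting hairpin (shNT) or one directed at GPR81 (shGPR81), the lactate receptor encoded by HCAR1, and compared 3 libraries of each group. The labels do not say which GPR81 hairpin the sequenced cells carried, and do not say whether the 3 libraries of a group came from separate cultures, so p-values measure the spread between these libraries. All libraries were made with a stranded mRNA kit, which selects polyadenylated RNA, and read as single reads of 75 bases. Values are the authors' FPKM, fragments scaled to transcript length and library depth.

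Box C/D snoRNAs (SNORD) guide methylation of ribose in ribosomal RNA, and box H/ACA snoRNAs (SNORA) guide conversion of uridine to pseudouridine. ScaRNAs do the same for the small nuclear RNAs of the spliceosome. In human cells most of them lie in introns of a host gene and are trimmed out of the spliced intron. Some hosts code for ribosomal proteins or translation factors. Others, such as GAS5 and SNHG1, make a spliced RNA with little coding potential that is degraded while it is translated. Mature snoRNAs have no poly(A) tail.

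The cells expressed the markers of the line. VIM was at 3211 FPKM or more in every library, CD44, KRT18, CAV1 and AXL were all above 144 FPKM, and ESR1, PGR and the fibroblast gene DCN were at 0 in all 6. Of the markers of other cells, COL1A1 was at 0.503 to 1.18 FPKM, PECAM1 at no more than 0.136 and PTPRC at no more than 0.0286. The groups did not overlap in VIM, which was higher in the libraries labelled shGPR81, or in CD44, COL1A1 and PECAM1, which were lower there, and none of them was called. The part of this in the results below was not tested. HCAR1 was at 0.968, 1.02 and 1.36 FPKM in shNT and at 0.978, 0.891 and 0.396 FPKM in the libraries labelled shGPR81. The groups overlapped, and the log2 fold change of -0.57 (SE 0.31) had an adjusted p of 0.38 in limma (exact two-sided permutation test, p = 0.2, the smallest possible with 3 and 3 libraries being 0.1). Separately, the study reported reduced GPR81 in both of its knockdown lines by RT-qPCR and western blotting. Because HCAR1 did not separate the groups in these libraries, the group is written as the libraries labelled shGPR81. Relative depth, read from the steps of the FPKM values, was 1 to 1.07. In bulk RNA, fewer cells of a kind and less RNA per cell cannot be told apart.

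TAF1D, which codes for a subunit of the RNA polymerase I factor SL1, shows how the short RNAs appeared in these libraries. Its introns hold 8 of them, of both classes. As reads were counted here, its H/ACA RNAs had 74, more than the short RNAs of any other host. The 55 reads of the host EIF4A2 leave out SNORA81, which was above 0 in all 6 libraries without recovered reads. The place of EIF4A2 in this order is therefore not settled. By another count given below, SNORA73B of the host SNHG3 would have 102. TAF1D was chosen after its values were seen. The 6 H/ACA RNAs are 121 to 139 bases long in the RefSeq table and all were above 0. Both C/D RNAs, SNORD5 and SNORD6, are shorter than a read and were at 0 in all 6 libraries. Sequences of 3 of the H/ACA RNAs and of both C/D RNAs are given in the 5′ to 3′ direction of the RNA, with DNA letters, from the minus strand of GRCh37 as annotated by GENCODE. Capitals mark the ACA box 3 bases from the end of H/ACA RNAs, the C box TGATGA in the first 20 bases of C/D RNAs and the D box CTGA in their last 20 bases. Motifs were searched on the RNA strand alone.
SNORA1 (chr11:93465170-93465299): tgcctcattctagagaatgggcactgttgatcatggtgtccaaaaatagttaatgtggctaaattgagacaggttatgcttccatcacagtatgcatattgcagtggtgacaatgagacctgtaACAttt
SNORA8 (chr11:93465527-93465665): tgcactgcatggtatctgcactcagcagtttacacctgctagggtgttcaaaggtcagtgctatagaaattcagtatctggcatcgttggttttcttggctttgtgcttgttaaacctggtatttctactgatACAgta
SNORA40 (chr11:93468277-93468402): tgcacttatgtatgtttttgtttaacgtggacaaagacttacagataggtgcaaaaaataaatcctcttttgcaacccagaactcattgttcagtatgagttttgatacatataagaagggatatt
SNORD5 (chr11:93466394-93466466): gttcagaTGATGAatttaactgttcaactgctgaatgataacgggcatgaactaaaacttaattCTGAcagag
SNORD6 (chr11:93464668-93464740): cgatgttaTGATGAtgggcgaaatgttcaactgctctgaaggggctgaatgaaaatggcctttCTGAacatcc

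SNORA40 has no ACA at that place. Over the 72 H/ACA RNAs with a sequence, 75% held the ACA box there, 28 of the 40 above 0 and 26 of the 32 at 0. Over 179 C/D RNAs with a sequence, 73.7% held both boxes in these windows, 12 of the 17 above 0 and 120 of the 162 at 0. The same boxes were thus present in RNAs above 0 and in RNAs at 0. SNORD100, in an intron of RPS12, a ribosomal protein gene, is a C/D RNA of 76 bases, 1 base longer than a read. It was above 0 in a single library, where it was counted as 1 read. SNORD17, in an intron of the sorting nexin gene SNX5, is the longest C/D RNA of the table at 237 bases and was above 0 in all 6 libraries. Both carry the C and D boxes.
SNORD100 (chr6:133137941-133138016, plus strand): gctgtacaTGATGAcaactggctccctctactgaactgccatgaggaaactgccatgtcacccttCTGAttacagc
SNORD17 (chr20:17943353-17943589, minus strand): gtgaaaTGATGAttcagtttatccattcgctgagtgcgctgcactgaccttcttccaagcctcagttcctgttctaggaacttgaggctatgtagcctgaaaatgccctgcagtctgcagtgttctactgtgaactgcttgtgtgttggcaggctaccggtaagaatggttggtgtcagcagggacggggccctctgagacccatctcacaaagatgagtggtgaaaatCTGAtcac

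Detection differed with the class and the length of the RNA. Of 106 SNORA symbols 63 were above 0, of 24 SCARNA symbols 9, and of 255 SNORD symbols 32. No SNORD of 33 to 74 bases was above 0, out of 98. From 75 to 89 bases 14 of 93 short RNAs were above 0, from 90 to 114 bases 12 of 57, from 121 to 139 bases 56 of 104 and from 140 bases on 22 of 33. Many of the SNORD symbols at 0 were copies of SNORD113, SNORD114, SNORD115 and SNORD116 on chromosomes 14 and 15. All these copies were at 0 in every library, and their part in the shares by length and class was not separated. The shortest member was SNORD28 at 75 bases, the length of a read. SNORA genes have a median length of 134 bases and SNORD genes one of 79 bases. Host genes were detected in nearly every case: 21 of 22 were above 0, 20 of them in all 6 libraries, SNHG18 was at 0 in shGPR81 replicate 3, and SNHG24 was at 0 throughout. In contrast, 16 of the 104 short RNAs were above 0 in all 6 libraries and 40 in a single library.

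**Figure D1:**
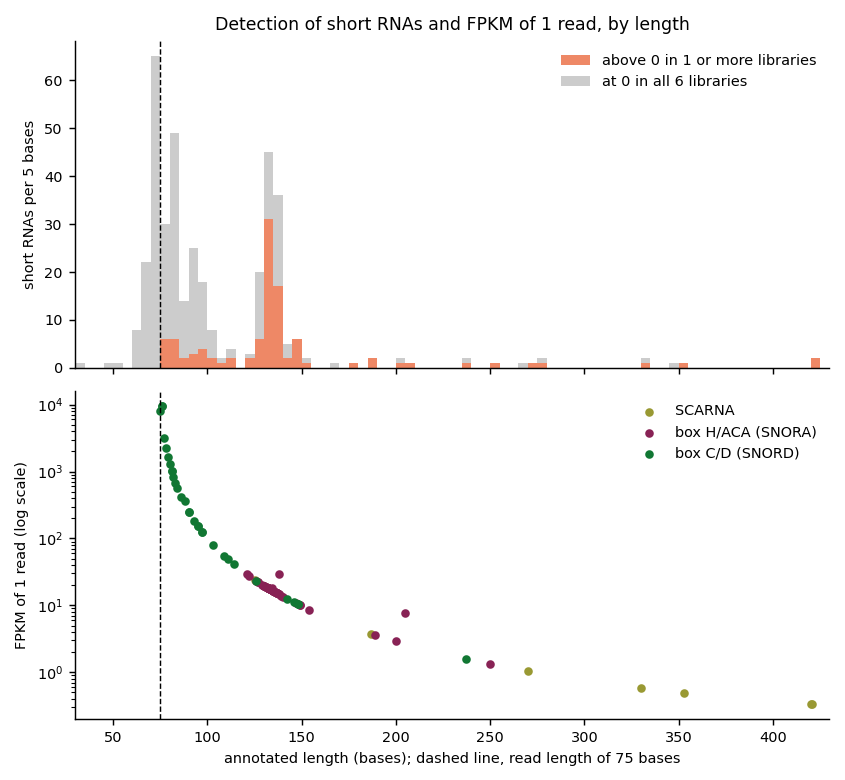
The upper panel counts the 385 short RNAs by annotated length in bases, split into those above 0 in at least 1 library and those at 0 in all 6, and the lower panel gives the FPKM that 1 read stands for, on a log scale, for 98 short RNAs. No RNA left of the dashed line at 75 bases was above 0, and 1 read was worth 7947 FPKM at 75 bases against 1.03 FPKM at 270 bases. The points at 76 bases, SNORD100 and SNORD87, assume 1 read each.

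The FPKM of short RNAs were whole multiples of 1 step, so reads could be recovered for 98 of the 104. All 6 libraries together held 678 such reads, with a median of 3 reads per RNA, 29 RNAs with 1 read in all and, counted as the smallest whole numbers, no more than 12 reads of an RNA in any library. What 1 read was worth fell steeply with length. One read of SNORD28 (75 bases) stood for 7947 FPKM on the scale of shNT replicate 1, 1 of SNORD47 (77 bases) for 3137. On that scale 1 read of SNORD76 (81 bases) stood for 1018, 1 of SNORA9 (133 bases) for 17.5 and 1 of SCARNA12 (270 bases) for 1.03. The order of short RNAs by FPKM was therefore not their order by reads. The 10 with the largest mean FPKM, SNORD76, SNORD28, SNORD47, SNORD87, SNORD79, SNORD100, SNORD104, SNORD35B, SNORD45A and SNORD58C, are 75 to 90 bases long, made up 87.5% of the summed mean FPKM of short RNAs, and rested on 92 reads in all. The 10 with the most reads, SNORD76, SNORD22, SNORA73B, SNORA63, SNORA61, SNORA10, SNORA70, SNORA4, SCARNA12 and SNORA76C, had 295 reads, and SNORD76 alone stood in both lists. SNORD100 and SNORD87, both of 76 bases and each above 0 in 1 library, were counted as 1 read without a check against length. Their step of 9474 FPKM was above the 7947 FPKM of SNORD28 at 75 bases, so their reads may be undercounted. In 2 more RNAs, SNORA73B and SNORA71C, the step was 2.92 and 2.01 times that of RNAs of their length. The reads of SNORA73B and SNORA71C may be undercounted by these factors. With the step of its length SNORA73B would have 102 reads in place of 34, up to 27 in a library, and would lead the order by reads, SNORA71C would have 8 in place of 4, and all 98 RNAs would have 750. Through these few reads short RNAs took 1.34% to 4.26% of the summed FPKM of a library, and all host genes together 0.28% to 0.348%.

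GAS5 illustrates the contrast between a host and the RNAs it holds. GAS5 (chromosome 1 from 173827697 to 173838020, minus strand), a growth arrest transcript in which the annotation step placed 9 C/D RNAs, was at 244, 226 and 201 FPKM in shNT and at 266, 232 and 204 FPKM in the libraries labelled shGPR81. The groups overlapped, and the log2 ratio was 0.06 ± 0.11 SE with a limma adjusted p of 0.823. Its SNORD76 had 11, 6 and 1 reads in shNT and 12, 5 and 7 reads in the libraries labelled shGPR81, which the table lists as 1017 to 11414 FPKM. SNORD47 had 2, 1 and 0 against 1, 0 and 1 reads, and SNORD79 had 5, 0 and 1 against 3, 0 and 0 reads. SNORD44, SNORD74, SNORD75, SNORD77, SNORD78 and SNORD80, all of 60 to 72 bases, were at 0. SNORD81, a C/D RNA of 77 bases on the same chromosome, was also at 0, and no host was found for it here. SNORD78, at 65 bases, shows a D box and no C box of these exact letters in the searched window.
SNORD78 (chr1:173834760-173834824, minus strand): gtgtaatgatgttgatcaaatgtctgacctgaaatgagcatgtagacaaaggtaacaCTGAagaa

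SNHG1 (chromosome 11 from 62619450 to 62623425, minus strand) holds 8 C/D RNAs and was at 59.7, 54.8 and 45.7 FPKM in shNT and at 60.7, 54.6 and 49.8 FPKM in the libraries labelled shGPR81. The groups overlapped almost fully (log2 ratio 0.05 ± 0.11 SE, limma adjusted p = 0.873). SNORD22, its longest C/D RNA at 126 bases, had 4, 5 and 3 reads in shNT and 5, 11 and 7 reads in the libraries labelled shGPR81. On the FPKM scale its log2 ratio was 0.82 ± 0.29 SE with a limma adjusted p of 0.175, and the read ratio was 1.82 with a 95% Clopper-Pearson interval of 0.869 to 4.01, which covers counting error only. SNORD28 had 0, 0 and 2 reads against 1, 1 and 0 reads. The other 6, of 65 to 75 bases, were at 0.

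Expression differed widely among the host genes. SNHG5, the host of SNORD50A and SNORD50B, stood highest at 888 to 923 FPKM in shNT and 885 to 926 FPKM in the libraries labelled shGPR81. SNHG8 was at 566 to 613 and 590 to 679 FPKM. SNHG6 was at 194 to 210 and 197 to 223 FPKM. Below them, the 2 groups lay at 109 to 129 and 61.6 to 106 FPKM for SNHG9, at 78.5 to 94.1 and 67.4 to 79.3 FPKM for SNHG19, and at 65.1 to 74.9 and 60.9 to 67.5 FPKM for SNHG3. SNHG16 was at 30.6 to 32.9 and 28.5 to 30.9 FPKM, SNHG7 at 25.0 to 26.6 and 21.7 to 27.2 FPKM, and SNHG15 at 17.1 to 19.7 and 17.8 to 19.4 FPKM. SNHG4 was at 13.3 to 17.4 and 14.6 to 15.9 FPKM, SNHG21 at 9.49 to 10.6 and 7.77 to 10.5 FPKM, and SNHG20 at 0.723 to 1.53 and 1.07 to 1.82 FPKM. SNHG22 was lowest in shNT, at 0.361 to 0.503 FPKM against 0.0481 to 0.536 FPKM. In these genes the groups overlapped except in SNHG9.

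The spread among replicates separated hosts from short RNAs. The coefficient of variation within a group had a median of 9.12% over the host genes, near the 8.17% over all tested genes, and one of 132% over the short RNAs. Among the 16 short RNAs above 0 in all 6 libraries it was 49.2%. Over the read numbers of short RNAs, the chi-square per degree of freedom within groups was 1.23, where counting noise alone gives about 1. RNAs with a single read give about 1 by construction, and over the 17 RNAs with at least 12 reads it was 1.57. For SNHG25 the spread also came with few reads: its FPKM of 485, 568 and 484 in shNT and of 317, 183 and 779 in the libraries labelled shGPR81 stood for 10, 12 and 10 and for 7, 4 and 17 reads. One read of this host was worth 48.5 FPKM, the value of a short RNA, and its log2 ratio was -0.52 ± 0.45 SE with a limma adjusted p of 0.614. SNHG12 was the opposite case. Its values stood for 133, 72 and 54 reads and for 165, 100 and 71 reads, and the chi-square per degree of freedom was 20.2.

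**Figure D2:**
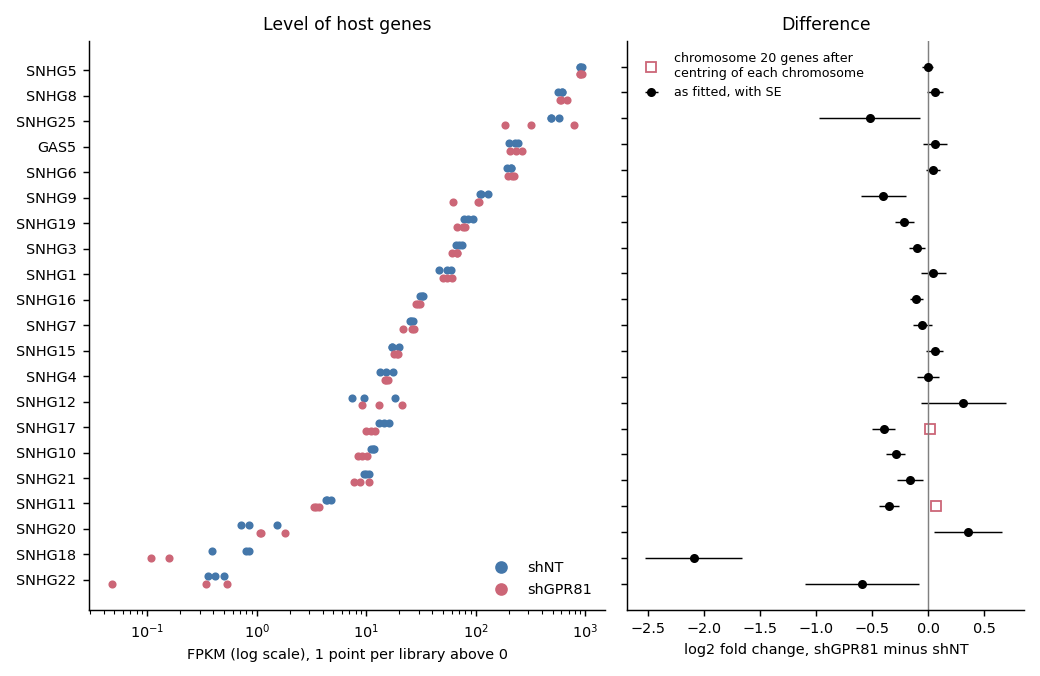
The left panel gives the FPKM of the 21 host genes in each library on a log scale, and the right panel the log2 fold change of the libraries labelled shGPR81 over shNT with its SE. SNHG18 stood at -2.09, and the chromosome 20 genes SNHG17 and SNHG11 moved from -0.40 and -0.35 to 0.02 and 0.07 after each chromosome was centred.

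The comparison of the libraries labelled shGPR81 with shNT asked which of these RNAs differed between the groups. A member was tested when it reached 0.1 FPKM in at least 3 libraries, which left 67 of the 125, all 21 host genes and 46 short RNAs. A short RNA can pass that filter through the 3 libraries of 1 group alone, so counts over those tested are not counts over all members. A gene was called when limma gave it an adjusted p (Benjamini-Hochberg) below 0.05 together with more than a 1.5-fold change. Of the 67 tested members 2 were called, SNHG18 lower and SNORA9 higher, which is 2.99% where 2.54% of all 14349 tested genes were called, a share near the background. SNORA9 was at 0 throughout shNT and entered the test only through the other group, and SNHG18 was the 1 call with values in both groups. Lower calls made up 1.59% and higher calls 0.955% of all tested genes. At an unadjusted p under 0.05 the count was 12 of 67, or 17.9%, against 19.5% of all tested genes. The groups did not overlap in 5 host genes, all lower, and in 2 short RNAs, SNORA9 and SCARNA10, against 25.6% of all tested genes (12.7% lower). SCARNA10 had 1, 1 and 1 against 0, 1 and 0 reads, and its groups were kept apart only by the scaling to depth. Host genes had a median log2 ratio of -0.10, and all tested genes one of 0.01. After centring of each chromosome the median of the host genes was -0.01. The median was 0.81 over the 46 short RNAs, and 0.80 with SNORA9 at the bound set by 3 reads per library. Reads were recovered for 44 of the 46, and in 31 of these at least 1 group had no more than 3 reads in any library, so that their ratios depend on the pseudocount and the median supports no direction. The median SE was 1.90 for short RNAs, 0.10 for host genes and 0.10 for all tested genes.

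SNHG18 (chromosome 5 from 9546282 to 9550837, plus strand) is a long noncoding RNA gene that holds SNORD123, which was at 0 in all libraries. It was at 0.793, 0.387 and 0.849 FPKM in shNT and at 0.159, 0.107 and 0 FPKM in the libraries labelled shGPR81. Every shNT library was above every other library. The mean fell from 0.676 ± 0.252 to 0.0886 ± 0.0810 FPKM (SD, n = 3 each), and on the log2(FPKM + 0.1) scale the log2 ratio was -2.09 ± 0.43 SE with a limma adjusted p of 0.0369. The values in the libraries labelled shGPR81 were near or under the 0.1 FPKM added, so the size of this ratio depends on it. The values stood for 14, 7 and 15 reads and for 3, 2 and 0 reads, a ratio of 0.132 (95% Clopper-Pearson interval 0.0404 to 0.337). The call was lost with the replicate number as a block (adjusted p = 0.0637), with no filter (0.0616) and with a pseudocount of 0.01 (0.121), and SNHG18 was not tested at a filter of 1 FPKM. It was also lost in each of the 6 fits without a library, with an adjusted p of 0.0585 (without shGPR81 replicate 1) to 0.103 (without shNT replicate 3), and log2 fold changes of -2.40 to -1.69.

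SNORA9 is an H/ACA RNA of 133 bases in SNHG15. It was at 0 in the 3 shNT libraries and at 16.4, 33.2 and 16.6 FPKM in the libraries labelled shGPR81. It passed the filter only through the group in which it was above 0, so its call supports no difference between the groups. These values stood for 1, 2 and 1 reads, under the 3 reads per library that were set as the floor for a fold in either group, and no fold is given. Its host SNHG15 was at 17.1 to 19.7 FPKM against 17.8 to 19.4 FPKM (log2 ratio 0.06 ± 0.07 SE, limma adjusted p = 0.738).

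A pair of further hosts had groups without overlap and lie on chromosome 20, where genes as a whole were lower. SNHG17 (from 37048285 to 37064052, minus strand), which holds SNORA71A to SNORA71D, was at 14.4, 16.2 and 12.9 FPKM in shNT and at 11.9, 11.1 and 9.97 FPKM in the libraries labelled shGPR81. Its log2 ratio was -0.40 ± 0.10 SE with a limma adjusted p of 0.0759. SNHG11 (from 37074986 to 37079583, plus strand) was at 4.37, 4.75 and 4.28 FPKM and at 3.70, 3.43 and 3.35 FPKM, from 53, 59 and 52 reads and 48, 44 and 43 reads. Its log2 ratio was -0.35 ± 0.09 SE with a limma adjusted p of 0.0794. The median over 270 genes of chromosome 20 that averaged 5 FPKM or more was -0.40, and 260 of them were lower. After each chromosome was centred in each library, a setting chosen after the data were seen, SNHG17 was at 0.02 (adjusted p = 0.957) and SNHG11 at 0.07 (adjusted p = 0.763). These 4 H/ACA RNAs together had 3, 0 and 3 reads in shNT and 1, 3 and 2 reads in the libraries labelled shGPR81, or 4, 0 and 4 against 1, 4 and 3 with the step of its length for SNORA71C. These genes resemble each other closely, so reads could be split among them.

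SNHG10 and SNHG9 completed the 5 hosts without overlap. SNHG10, the host of SCARNA13, was at 10.9, 11.4 and 11.7 FPKM in shNT and at 10.2, 8.46 and 9.19 FPKM in the libraries labelled shGPR81 (log2 ratio -0.29 ± 0.08 SE, limma adjusted p = 0.107). SNHG9, the host of SNORA78, was at 129, 109 and 112 FPKM and at 106, 104 and 61.6 FPKM (log2 ratio -0.40 ± 0.20 SE, limma adjusted p = 0.336). A single library, shGPR81 replicate 3, stood far below the others in SNHG9, and without it the log2 fold change was -0.14. None of these 4 passed the threshold on the adjusted p.

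In all, 6 hosts had their highest value in replicate 1 and their lowest in replicate 3 in both groups. SNHG12 (chromosome 1 from 28905050 to 28909644, minus strand), which holds SNORA16A, SNORA44, SNORA61 and SNORD99, was the widest: 18.2, 9.59 and 7.36 FPKM in shNT and 21.0, 12.9 and 9.16 FPKM in the libraries labelled shGPR81. The difference between replicates 1 and 3 exceeded that between the groups (log2 ratio 0.32 ± 0.38 SE, limma adjusted p = 0.729). The others were GAS5, SNHG1, SNHG4, SNHG8 and SNHG21. The same arrangement was found in 6 of 21 host genes, 6 of 52 other genes that hold a member, and 7.84% of the 11677 tested genes averaging 1 FPKM or more. Its relation to the handling of the libraries was not tested. The reads of SNORA61 were 6, 8 and 3 in shNT and 7, 3 and 2 in the libraries labelled shGPR81, with a read ratio of 0.67 (0.292 to 1.49).

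**Figure D3:**
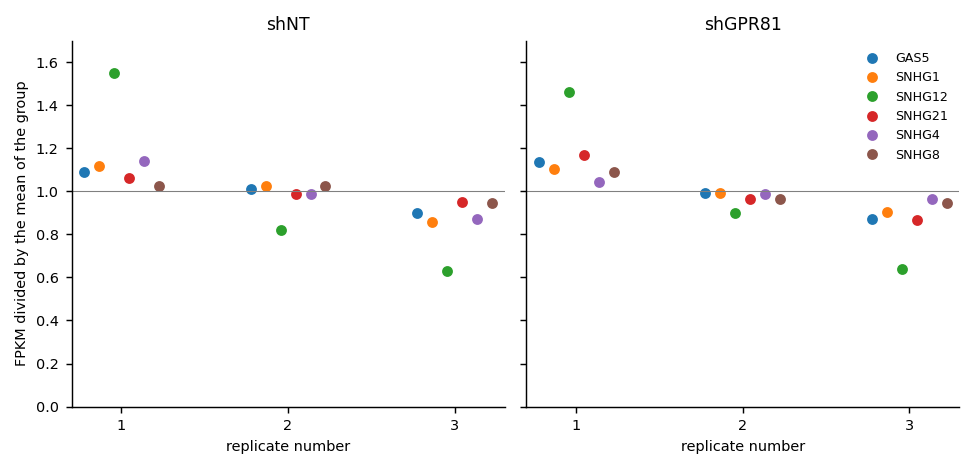
Each point is the FPKM of 1 host gene in 1 library divided by the mean of its group, for the 6 hosts that were highest in replicate 1 and lowest in replicate 3 of both groups. SNHG12 lay farthest from 1, with 133, 72 and 54 reads in shNT and 165, 100 and 71 reads in the libraries labelled shGPR81.

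Reads of short RNAs were more frequent in the libraries labelled shGPR81. Summed over 98 RNAs, shNT had 113, 97 and 63 reads and the libraries labelled shGPR81 had 145, 137 and 123. After division by relative depth these were 113, 94.7 and 62.9 against 135, 130 and 116, a ratio of the group means of 1.41 (1.39 with the steps of the length curve). The groups did not overlap, though the highest shNT library came close to the lowest of the other group. Without shNT replicate 3 the ratio was 1.22, and without shNT replicate 1 it was 1.61. SNORA genes gave 66, 66 and 42 against 88, 91 and 84 reads, SNORD genes 41, 28 and 15 against 47, 39 and 29, and SCARNA genes 6, 3 and 6 against 10, 7 and 10. No test was made of the sum. Of 55 short RNAs with reads in both groups, the 95% counting interval lay above 1 for SNORA8, SNORA33 and SNORD58C and below 1 for none. SNORA33, in the ribosomal protein gene RPS12, had 1, 0 and 0 against 1, 5 and 6 reads, and none of the 3 was called by limma. These intervals cover counting error only. Reads spread more than that within groups, with a chi-square per degree of freedom of 1.57 over the 17 RNAs with at least 12 reads. RNAs with reads in 1 group alone had no interval, such as SNORD97 (0, 0 and 0 against 5, 0 and 2 reads) and SNORD12B (2, 3 and 0 against 0, 0 and 0 reads). The share of such intervals over all genes was not computed, so their number is not read as a difference in these RNAs.

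Among the RNAs with most reads the difference varied from one to the next. SNORA63 and SNORA4, both in the translation factor gene EIF4A2, had 3, 5 and 2 against 3, 6 and 12 reads and 5, 3 and 3 against 4, 4 and 5 reads. SNORA10, in the ribosomal protein gene RPS2, had 2, 3 and 6 against 10, 1 and 6 reads, and SNORA70, in RPL10, had 7, 1 and 2 against 4, 11 and 1 reads. SNORA73B, in SNHG3, had 5, 8 and 2 against 3, 7 and 9 reads. SCARNA12, in the prohibitin gene PHB2, had 4, 2 and 2 against 8, 2 and 5 reads, and SNORA76C had 5, 7 and 0 against 7, 2 and 2 reads. The groups overlapped in all of these. SNORA10 and SNORA70 both carry the ACA box, and their reads varied by a chi-square per degree of freedom of 2.37 and 4.07.
SNORA10 (chr16:2012335-2012467, minus strand): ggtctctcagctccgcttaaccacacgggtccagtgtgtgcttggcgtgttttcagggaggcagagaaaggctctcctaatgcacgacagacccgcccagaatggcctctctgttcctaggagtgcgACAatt
SNORA70 (chrX:153628622-153628756, plus strand): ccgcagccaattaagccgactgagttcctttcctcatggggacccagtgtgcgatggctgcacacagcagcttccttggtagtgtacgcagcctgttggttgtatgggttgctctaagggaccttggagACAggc

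**Figure D4:**
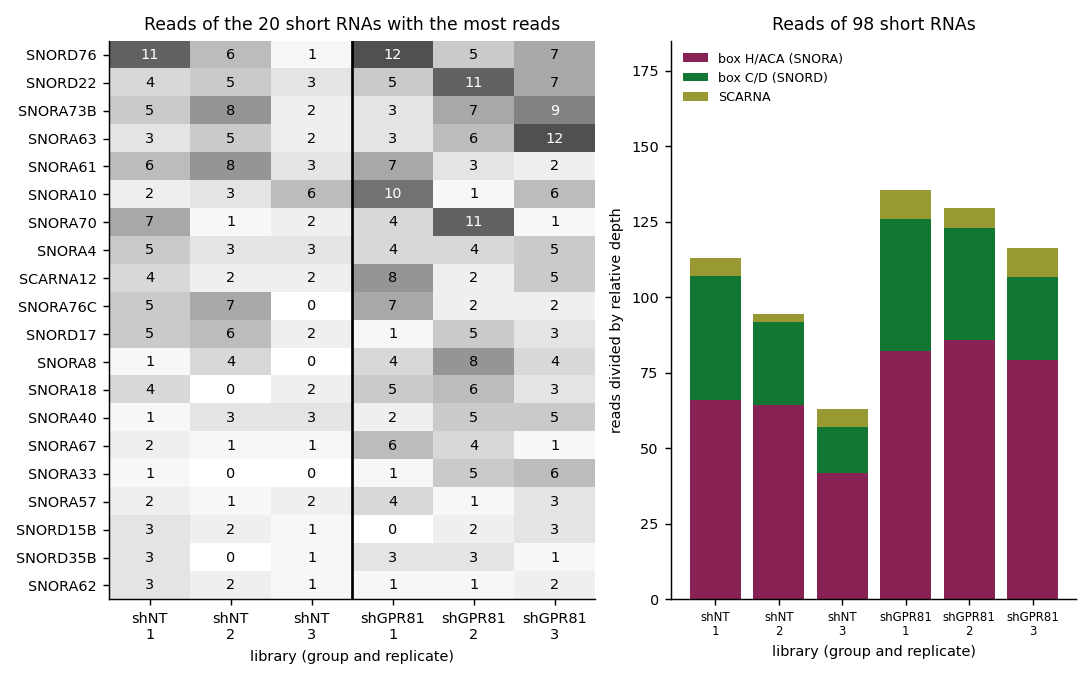
The left panel gives the recovered reads of the 20 short RNAs with the most reads in each library, and the right panel the reads of 98 short RNAs divided by relative depth, stacked by class. The sums were 113, 94.7 and 62.9 in shNT and 135, 130 and 116 in the libraries labelled shGPR81.

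The annotation placed 102 of the 104 short members inside a host, 26 in SNHG genes or GAS5 and 76 in 52 other genes. The strand of RNA and host was compared for 62 of the 104. The 6 H/ACA RNAs of TAF1D together had 7, 8 and 7 reads in shNT and 15, 23 and 14 reads in the libraries labelled shGPR81. These groups did not overlap, as in 25.6% of all tested genes, and TAF1D was chosen from 68 hosts after its values were seen. TAF1D itself was at 26.1 to 30.8 FPKM against 29.7 to 31.2 FPKM (log2 ratio 0.06 ± 0.07 SE, limma adjusted p = 0.713). Of its RNAs SNORA8 had 1, 4 and 0 against 4, 8 and 4 reads, and SNORA40 had 1, 3 and 3 against 2, 5 and 5 reads. None of the 52 other hosts was called, and their median log2 fold change was -0.02. An adjusted p under 0.05 was reached by 5.13% of all tested genes (3.07% lower) and by 3 of the 52, NOP56, SNX5 and ZFAS1, all lower and all on chromosome 20. SNX5 fell by 0.52 on the log2 scale (SE 0.07, adjusted p = 0.00568 from limma) and ZFAS1, a noncoding host of SNORD12, SNORD12B and SNORD12C, fell by 0.49 (SE 0.05, adjusted p = 0.0024). The SNORD12 genes had 3, 3 and 0 against 0, 1 and 0 reads, and SNORD17 of SNX5 had 5, 6 and 2 against 1, 5 and 3 reads. After centring of each chromosome SNX5 was at -0.11 (adjusted p = 0.545) and ZFAS1 at -0.08 (adjusted p = 0.318). SNX5 and ZFAS1 were named after their values were seen.

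Among proteins that build snoRNA particles, NOP56 was lower. A list of 25 genes for particle proteins, assembly and transport held 0 calls, 1 adjusted p under 0.05 and 3 unadjusted p under 0.05 in limma, where 5.13% and 19.5% of all tested genes were under these limits. Of the C/D core, FBL, the methyltransferase fibrillarin, averaged 250.2 ± 18.2 FPKM in shNT and 245 ± 14.3 FPKM in the libraries labelled shGPR81 (SD, n = 3 each). NOP58 was at 80.6 to 93.2 and 88.2 to 89.8 FPKM, and NHP2L1 (SNU13) at 142 to 177 and 154 to 164 FPKM. NOP56, which also holds 4 short RNAs, was at 160, 155 and 151 FPKM against 108, 100 and 107 FPKM, and the log2 ratio was -0.56 ± 0.05 SE with a limma adjusted p of 0.00158, under the fold change threshold. NOP56 lies on chromosome 20 and was at -0.15 (adjusted p = 0.204) after each chromosome was centred. Of its short RNAs SNORA51 was the 1 above 0, with 0, 1 and 3 reads in shNT and none in the libraries labelled shGPR81. Of the H/ACA core, the groups overlapped in DKC1 (the pseudouridine synthase dyskerin, 58.3 to 60.3 and 53.8 to 58.5 FPKM), GAR1 (56.2 to 59.7 and 51.3 to 56.8 FPKM), NHP2 (195 to 233 and 180 to 209 FPKM) and NOP10 (296 to 393 and 343 to 368 FPKM).

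The enzymes that free snoRNAs from introns and the factors that degrade host RNAs gave 0 calls among 17 genes in limma, with 1 unadjusted p under 0.05 (5.88%, against 19.5% of all tested genes), which also passed after adjustment. That gene was XRN2, a nuclear 5′ to 3′ exonuclease, named after its values were seen. XRN2 was at 97.6, 90.4 and 89.9 FPKM in shNT and at 63.4, 65.2 and 61.0 FPKM in the libraries labelled shGPR81, a fall of 0.55 on the log2 scale (SE 0.05, adjusted p = 0.00209). It too lies on chromosome 20, and after centring it was at -0.14 (adjusted p = 0.309). The groups overlapped in the debranching enzyme gene DBR1 (log2 ratio -0.06 ± 0.10 SE, limma adjusted p = 0.816) and in the decay factor gene UPF1 (29.8 to 34.9 and 32.0 to 34.1 FPKM), both named for their roles after the values were seen.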

How the data were processed

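RNA-seq libraries of MDA-MB-231 cells, 3 shNT and 3 shGPR81, were analyzed from the deposited FPKM. The authors mapped reads to hg19 with TopHat, Bowtie 2 and SAMtools. The submitters' processing notes name TopHat2 2.0.13, Bowtie2 2.2.3, SAMtools 0.1.19 and Cuffnorm 2.2.1, and mm10 as the build. The cells and symbols are human, so hg19 (GRCh37) was used. The gene annotation behind the FPKM is not given in the sources used here. Columns were matched to samples by title.

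Members and lists were chosen with earlier results of these data known. Differences were fitted by limma 3.58.1 (lmFit, eBayes with trend, no block) in R 4.3.3 to log2(FPKM + 0.1) of the 14349 genes that reached 0.1 FPKM in 3 libraries, and p-values were adjusted over all of these by Benjamini-Hochberg. On data simulated for this comparison over 14102 genes, 84 of 85 genes changed by 1 on the log2 scale and 114 of 115 changed by 2 were called, with 5 false calls. The changed genes were drawn from those averaging 5 FPKM or more, with normal noise on the log scale. These rates therefore do not carry over to SNHG18 or to short RNAs that rest on few reads. Named were all host genes, called members, the 10 short RNAs with the largest mean FPKM and the 10 with the most reads, core particle proteins, called genes of the lists, and hosts of named RNAs. Exceptions are marked.

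Depth is not given with FPKM. Library scales came from the commonest ratios of low values. The reads of a gene are the smallest whole numbers that give its FPKM within 0.003 of a read step in relative terms (0.0001 for hosts). For an RNA seen in 1 library the step of its length was used. The shortest of these, SNORD100, SNORD87, SNORD84 and SNORD12C, were instead counted as 1 read without that check. Intervals are Clopper-Pearson at 95% and the floor for a fold is 3 reads per library. Both cover counting error only. Lengths and hosts came from RefSeq (GRCh38.p14, all 407 symbols matched, 9 through synonyms), coordinates and sequences from GENCODE release 44 on GRCh37, where 267 short RNAs had a single locus of matching length. Figures used Python 3.11.15 and matplotlib 3.10.9. Alternatives were a replicate block, each library left out, filters of 1 FPKM and none, pseudocounts of 1 and 0.01, median centring, quantile normalization, a fit without short RNA genes and, chosen after seeing the data, centring by chromosome, leaving out SNORD76 and read steps by length for SNORA73B and SNORA71C. The sequence of 1 further short RNA is not reported here.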

Additional observations from a re-analysis of the deposited data

How the results depend on the processing

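The calls on members rested on few reads. SNHG18 was also called under pseudocount 1, median centring, quantile normalization, chromosome centring and without short RNA genes. The number of members called was 1 with the filter of 1 FPKM, with no filter, with pseudocount 0.01 and without short RNA genes, and 0 to 4 with each library left out, 0 without shGPR81 replicate 1 and 4 without shNT replicate 3 (SNORA1, SNORA52, SNORA9 and SNORD58C). Host genes gave 0 calls with the replicate block, the filter of 1 FPKM, no filter, pseudocount 0.01 and each library left out (0 to 0). Short RNAs gave 2 calls with the replicate block, SNORA9 and SNORA40, and 0 to 4 with each library left out. For SNHG18 the adjusted p was 0.0637 with the replicate block, 0.0616 with no filter and 0.121 with pseudocount 0.01 (limma). SNHG17, at a limma adjusted p of 0.0496 with the block and 0.0499 without shNT replicate 3, stayed under the fold change threshold. The pairing check gave correlations of deviations of 0.120, 0.0223 and 0.00577 between same-numbered libraries, and the numbers were not taken as pairs. Over all genes 365 were called, 217 with pseudocount 1 and 193 to 394 with each library left out. The median of host genes was -0.0117 under chromosome centring, where SNHG17 (0.0167) and SNHG11 (0.068) changed sign. With each library left out the log2 fold change ran from -0.036 to 0.155 for GAS5, from -0.0609 to 0.131 for SNHG1 and from -0.0106 to 0.11 for TAF1D. The median of short RNAs (0.46 to 1.04), their read ratio (1.22 to 1.61) and the 0 calls of both gene lists kept their direction or count under the settings run for them. The causes of these changes were not tested. Depth limits short RNAs: no fold was given for SNORA9, and RNAs of fewer than 75 bases are shorter than a read.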

Other observations

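SNHG18 lies head to head with SEMA5A, an axon guidance gene on the other strand of chromosome 5, in GRCh37 from 9035145 to 9546187. SEMA5A was at 0.0999, 0.110 and 0.0811 FPKM in shNT and at 0.0233, 0.0414 and 0.0177 FPKM in the libraries labelled shGPR81. As in SNHG18 the groups did not overlap, which was so in 25.6% of all tested genes. SEMA5A lies outside the rule by which genes were named here, and the paper lists it, from the same RNA-seq, among motility genes that were lower. It was below the filter on low values, and without a filter its log2 ratio was -0.63 ± 0.15 SE with a limma adjusted p of 0.0938, against -2.09 (SE 0.43, adjusted p = 0.0616) for SNHG18. SEMA5A values, and those of SNHG18 in the libraries labelled shGPR81, were near or under the 0.1 FPKM added before the log. This shrinks the ratios, so the sizes cannot be compared. The means of SEMA5A were 0.0969 FPKM in shNT and 0.0275 FPKM in the libraries labelled shGPR81. The annotated genes are 94 bases apart. The stretch between them holds 85.1% G and C and 15 CpG, which are in capitals.
SEMA5A to SNHG18 (chr5:9546188-9546281, plus strand): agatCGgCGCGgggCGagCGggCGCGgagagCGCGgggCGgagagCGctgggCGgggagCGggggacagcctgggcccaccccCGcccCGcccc

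Of the 98 short RNAs with recovered reads, those of SNHG12 had 9, 8 and 4 reads in shNT and 10, 5 and 2 reads in the libraries labelled shGPR81, and those of GAS5 had 18, 7 and 2 against 16, 5 and 8 reads. The hosts SNHG12 and GAS5 were also highest in replicate 1 of both groups. With 2 hosts and these read numbers no relation was tested.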
